A study of Homo sapiens with 27 samples.

Results

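Interferon response and antigen presentation genes were followed in 3 prostate cancer cell lines with knockdown of CPSF1. The group holds 51 of the 20268 protein-coding genes of the count table. They were chosen by symbol, as interferon-induced genes, RNA sensors, parts of the JAK-STAT pathway and class I presentation genes. All 51 symbols were found. CPSF1 is the largest subunit of the cleavage and polyadenylation specificity factor, which reads the polyadenylation signal and directs the cleavage of pre-mRNA. RNA-seq was performed on LNCaP, a hormone-sensitive line, and on LNCaP95 and 22Rv1, which are hormone-insensitive. Lentivirus carried a control hairpin (CTRL sh) or either of 2 CPSF1 hairpins, named sh1 and sh2, and infected cells were selected with puromycin and expanded. Each of the 9 groups had 3 libraries, labelled as biological replicates, 27 in all. Lentiviral transduction, the expressed hairpin and puromycin selection were thus shared by control and knockdown cells. LNCaP and 22Rv1 were grown in RPMI with 10% FBS and LNCaP95 in the phenol red-free form of that medium with 10% FBS, so that line and medium cannot be told apart. All cells were seeded at 500000 per well and grown for 72 h.

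Interferons are secreted proteins that bind paired receptors on the cell surface. The type I receptor (IFNAR1 and IFNAR2) carries the kinases JAK1 and TYK2, which signal through factors such as STAT2 and IRF9 to the interferon-stimulated response element in front of target genes, whose products bind or degrade viral RNA, block viral entry or attach the ubiquitin-like protein ISG15 to other proteins. Sensors of double-stranded RNA such as RIG-I (DDX58) and MDA5 (IFIH1) act upstream, through IRF3 and IRF7. Class I molecules (HLA-B and HLA-C with B2M) carry peptides, which TAP1 and TAP2 pump into the endoplasmic reticulum, to the surface for T cells to read.

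The total count on genes ranged from 8515624 to 15904518 per library. Levels are given as CPM, a count scaled to the size of its library, on 1 TMM scaling of all 27 libraries, and 3 counts, taken as the floor, correspond to 0.183 to 0.359 CPM. CPSF1 itself was lower with both hairpins in each line. It lay between 151 and 153 CPM in the CTRL sh libraries of LNCaP and between 86.2 and 108 CPM in the 6 knockdown libraries. With the hairpins pooled, CPSF1 changed by -0.65 on the log2 scale in LNCaP, by -0.89 in LNCaP95 and by -0.50 in 22Rv1, each past the threshold of an adjusted p of 0.05 in edgeR. The 8 prostate epithelial markers summed to between 2790 and 6400 CPM over the 27 libraries. Of 8 leukocyte markers, PTPRC and CD3E, which define leukocytes and T cells, had at most 3 counts in any library, and the others are given beside the results of each line. Within groups, 22Rv1 CPSF1 sh1 replicate 3 differed from replicates 1 and 2 by 7.31 and 4.56 chi-square per degree of freedom, against 1.97 between those libraries, and LNCaP95 CTRL sh replicates 1 and 2 differed by 5.22, whereas all other pairs lay at or below 3.43. Counts without the 22Rv1 library are given with that line. In these bulk samples, fewer cells expressing a gene and less RNA per cell cannot be told apart. Only genes above 2 CPM in every library of a fit were tested. By this filter 25 members were tested in all 3 lines, 16 in some and 10 in none (IFI27, IFI44L, IFIT3, IFITM1, MX2, OAS2, OASL, IRF9, SAMD9L and XAF1). Of the 41 members tested, CMPK2 alone passed the threshold in none of the comparisons of knockdown with control. It was not tested in LNCaP95. There it was 1.15, 0.98 and 0.68 CPM with CTRL sh and between 1.83 and 2.44 CPM in the 6 knockdown libraries.

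Many members carry the core of the interferon-stimulated response element in front of their start, and a stretch that holds it is printed for genes that recur in the results. The motif searched was GAAANNGAAA, which reads TTTCNNTTTC on the other strand, within the 250 bases before each RefSeq start (assembly GRCh38.p14). It was found for 23 of the 42 members in the promoter table (54.8%) and for 1014 of 27305 genes in all (3.71%). A gene with several starts was counted when any of them had a match, and matches could overlap each other. DDX58 was matched under its current symbol RIGI, and IFIT2, IFITM2, MX2, OAS2, OASL, IRF7, USP18, TRIM22 and IFNAR2 were not in the table. Capitals mark the matches, and each sequence reads 5′ to 3′ in the direction of transcription.
IFIT1: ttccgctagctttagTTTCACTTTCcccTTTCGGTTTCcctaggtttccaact
IFIT3: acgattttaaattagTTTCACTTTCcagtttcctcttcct
IFIT5: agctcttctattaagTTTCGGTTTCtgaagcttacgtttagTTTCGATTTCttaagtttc
IFI44: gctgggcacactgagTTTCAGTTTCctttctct
ISG15: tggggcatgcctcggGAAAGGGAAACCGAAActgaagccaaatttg
HERC5: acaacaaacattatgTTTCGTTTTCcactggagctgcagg
B2M: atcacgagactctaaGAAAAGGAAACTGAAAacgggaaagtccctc
TAP1: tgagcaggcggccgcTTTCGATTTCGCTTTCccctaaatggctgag
OAS3: cggagagccgggcggGAAAACGAAAcc
PARP9: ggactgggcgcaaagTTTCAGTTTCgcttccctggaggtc

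The printed stretches lie at chr10:89392492-89392544 (plus strand) for IFIT1, chr10:89327860-89327899 (plus) for IFIT3 and chr10:89414508-89414567 (plus) for IFIT5. Those of IFI44 and ISG15 lie at chr1:78649756-78649788 (plus) and chr1:1013369-1013414 (plus). HERC5 is at chr4:88457030-88457069 (plus), B2M at chr15:44711358-44711403 (plus), TAP1 at chr6:32853808-32853853 (minus), OAS3 at chr12:112938447-112938473 (plus) and PARP9 at chr3:122564317-122564356 (minus). It was not found in the windows of the other 19 members in the table, which were IFI35, OAS1, STAT2, IRF1, IRF9, DDX58, EIF2AK2, HERC6, UBE2L6, SAMD9L, DTX3L, TRIM21, HLA-B, HLA-C, JAK1, TYK2, IFNAR1, XAF1 and CMPK2.

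With CTRL sh, HLA-B was lowest and PARP14 highest in 22Rv1. Per kilobase of exon, HLA-C was the most abundant member in LNCaP and LNCaP95 (126 and 109 CPM per kb), whereas ISG15 was the most abundant in 22Rv1 (105 CPM per kb). HLA-B, a class I heavy chain, was 55.3 ± 2.03 CPM per kb in LNCaP, 45.5 ± 1.78 in LNCaP95 and 5.57 ± 0.53 in 22Rv1 (SD, n = 3). PARP14, an ADP-ribosyltransferase, ran the other way, at 5.21, 6.50 and 5.49 CPM in LNCaP, 14.6, 15.8 and 13.9 CPM in LNCaP95 and 54.4, 54.5 and 57.5 CPM in 22Rv1, with no overlap between the lines. The interferon-induced genes IFIT1, IFIT2, IFI44 and OASL, which the knockdown comparisons turn on, were low in every line with CTRL sh, at no more than 6.55 CPM in any control library.

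Against LNCaP, 22Rv1 was lower in 14 and higher in 6 of the 25 members tested (42.6% and 40% of all 10477 genes tested were lower and higher). The largest differences were in HLA-B (log2 fold change -3.31 ± 0.07 SE), TRIM21 (-2.32 ± 0.12), a cytosolic antibody receptor, HLA-C (-2.27 ± 0.05) and IFITM3 (-1.77 ± 0.07), which blocks viral entry. PARP14 (3.27 ± 0.09) and ISG15 (1.66 ± 0.07) were higher. HLA-B and HLA-C are polymorphic and close in sequence, and reads of each line were counted against 1 reference, so that their levels between lines carry that uncertainty.

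LNCaP95 was lower than LNCaP in 14 and higher in 6 members (background 40.4% and 40.1%). All 4 tested sensors and effectors of the RNA-sensing group were lower in LNCaP95: IFIH1 by -1.83 ± 0.14 on the log2 scale, DDX58 by -0.76 ± 0.13, EIF2AK2 (the kinase PKR) by -0.62 ± 0.07 and OAS3 by -0.46 ± 0.07. IFIT5 was lower as well (-1.63 ± 0.15). B2M, ISG15, IFITM3 and STAT2 were higher in LNCaP95, by 0.65, 0.69, 0.52 and 0.40. Under the filter, LNCaP95 had 0 counts of IFI44 in its control libraries, against 6.35, 4.89 and 6.55 CPM in LNCaP. BST2, a tether of budding virus, was 26.8, 19.4 and 23.6 CPM in LNCaP95 and under 1 CPM in each LNCaP control library. In the RNA-sensing group, OAS1 was higher in LNCaP95 (3.24, 3.21 and 2.72 CPM, against 1.99, 1.86 and 2.30 CPM in LNCaP). OASL was lower there (0.288, 0.268 and 0.097 CPM, against 1.80, 2.78 and 2.92 CPM). OAS2 was at most 0.27 CPM in the controls of both lines. Between the hormone-insensitive lines, 22Rv1 was higher in 12 and lower in 10 members (background 42.1% and 42.5%). HLA-B (-3.02 ± 0.08) and IFITM3 (-2.29 ± 0.07) were again lower in 22Rv1, and DTX3L (1.27 ± 0.07) and IFIH1 (1.16 ± 0.15) were higher than in LNCaP95. The median log2 difference of the 25 members was -0.26 for LNCaP95 against LNCaP, -0.20 for 22Rv1 against LNCaP and 0.15 for 22Rv1 against LNCaP95, where that of all genes was 0.00345, -0.0215 and 0.000696.

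**Figure D1:**
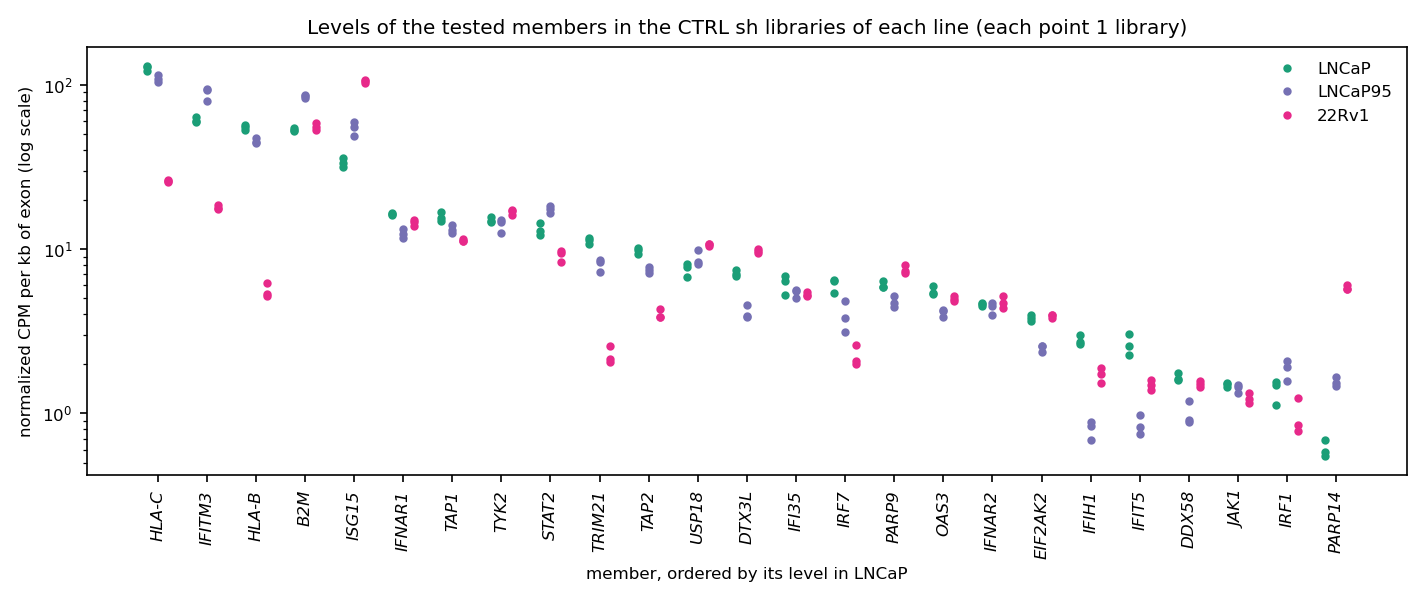
Levels of the 25 members tested in all CTRL sh libraries, in normalized CPM per kb of exon on a log scale, with 1 point per library and 3 libraries per line. HLA-B, HLA-C, IFITM3 and TRIM21 are lowest in 22Rv1, PARP14 and ISG15 are highest there, and IFIH1 and IFIT5 are lowest in LNCaP95.

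The knockdown was compared with CTRL sh first for each hairpin, since the hairpins differed. Both share the same 3 control libraries of a line. The heat map of fold changes shows a rise of IFIT1, IFIT2 and IFI44 with sh1 in LNCaP, rises of OAS3, PARP9, DTX3L and TRIM22 with both hairpins in LNCaP95 and a rise of HERC5 in 22Rv1.

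**Figure D2:**
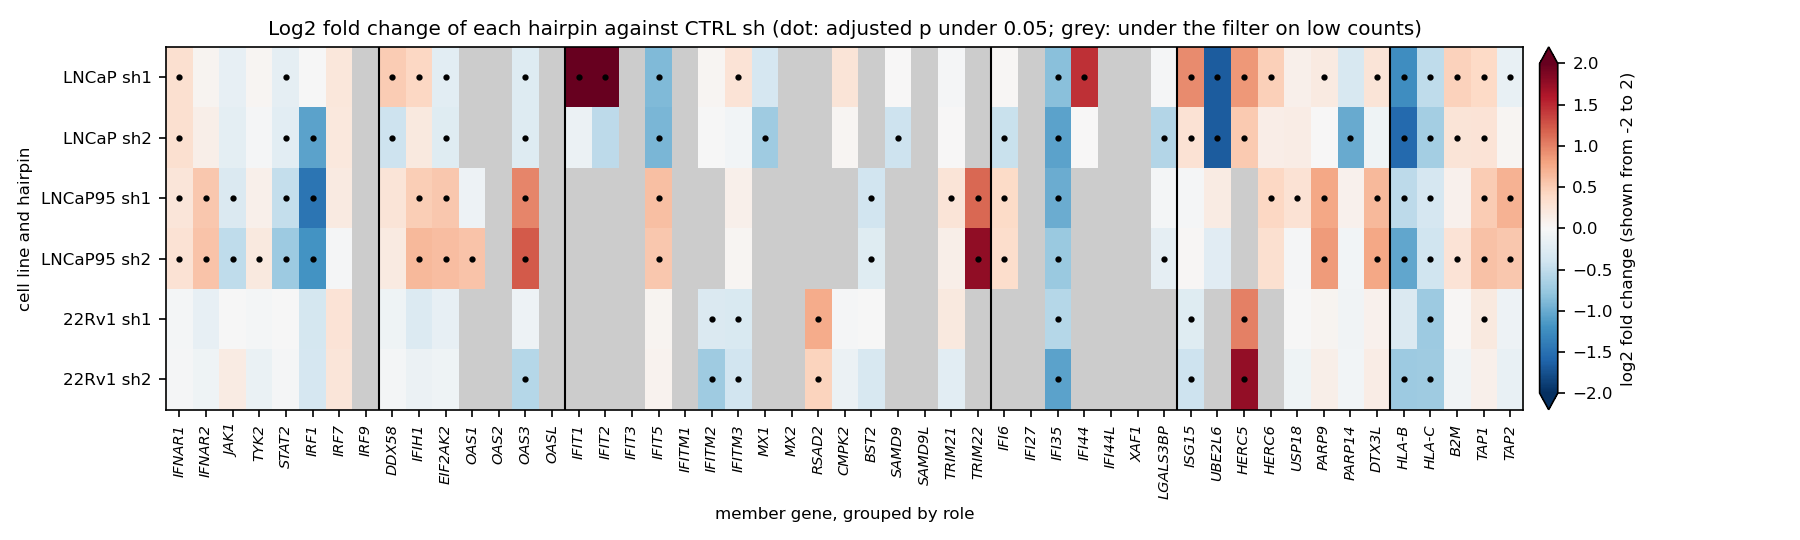
Log2 fold change of each of the 51 members (columns, grouped by role) for each hairpin against CTRL sh in each line (rows). A dot marks an adjusted p under 0.05 in edgeR, grey a gene under the filter on low counts, and colours stop at -2 and 2. HLA-C and IFI35 fell in all 6 rows, and HLA-B fell in all of them except 22Rv1 sh1.

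In LNCaP, IFIT1, IFIT2 and IFI44 rose with sh1 and were not called higher with sh2, ISG15 and HERC5 rose with both, and IFIT5, IFI35, UBE2L6, OAS3, EIF2AK2 and STAT2 fell with both. IFIT1, which binds viral RNA lacking the host cap methylation, was 2.94, 2.62 and 2.12 CPM with CTRL sh, 13.6, 17.7 and 17.7 CPM with sh1 and 2.39, 2.29 and 2.33 CPM with sh2. Every sh1 library lay above all others, and the sh2 libraries lay within the range of the controls. The log2 fold change was 2.70 ± 0.15 for sh1 (adjusted p = 8.14e-12) and -0.12 for sh2, which did not pass the threshold. IFIT2, its neighbour on chromosome 10, was 4.64, 2.78 and 3.54 CPM with CTRL sh, 17.4, 24.5 and 24.0 CPM with sh1 and 2.57, 2.58 and 2.33 CPM with sh2. It rose by 2.62 ± 0.16 with sh1. IFI44, a gene induced by type I interferon, was 6.35, 4.89 and 6.55 CPM in controls and rose to 16.6, 15.8 and 16.3 CPM with sh1 (1.47 ± 0.13), against 6.11, 6.34 and 5.23 CPM with sh2. ISG15 rose with both hairpins, from 25.4, 23.7 and 22.4 CPM to 48.6, 45.3 and 42.9 CPM with sh1 (0.94 ± 0.08) and to 31.1, 29.6 and 25.5 CPM with sh2 (0.28 ± 0.08). DDX58, which encodes the RNA sensor RIG-I, rose with sh1 (0.51 ± 0.12) and fell with sh2 (-0.42 ± 0.13).

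Over all members, 14 rose and 9 fell with sh1 among the 37 tested in LNCaP (31.2% and 31.3% of 11096 genes rose and fell). With sh2, 5 rose and 15 fell (32.1% and 32.5%). The median log2 fold change of the members was 0.04 with sh1 and -0.08 with sh2, while the median of all genes lay between -0.00444 and 0.00239 in the 12 knockdown comparisons of the 3 lines. In the test of sh2 against sh1, 15 members were lower with sh2 and 1, TAP2, was higher, where 8.24% and 6.53% of all genes were lower and higher. The differences were -3.15 ± 0.17 for IFIT2, -2.82 ± 0.15 for IFIT1, -1.46 ± 0.12 for IFI44, -1.07 ± 0.19 for IRF1, -0.93 ± 0.13 for DDX58, -0.66 ± 0.08 for ISG15 and -0.58 ± 0.07 for LGALS3BP, a secreted glycoprotein. The other lower members ranged from -0.17 (PARP9) to -0.46 (IFI6), of which PARP9 and IFI6 did not pass when single libraries were left out (adjusted p up to 0.192 and 0.187) or in DESeq2 (0.146 and 0.0987). HERC6 did not pass without sh2 replicate 1 (0.067) or sh1 replicate 3 (0.0565), and HLA-C did not pass without sh1 replicate 2 (0.0571). TAP2, the higher member, did not pass without sh1 replicate 2 (0.105), sh1 replicate 3 (0.116) or sh2 replicate 2 (0.183), or in DESeq2 (0.0796). The median over the 37 members tested was -0.22. CPSF1 did not differ past the threshold between sh1 and sh2 in LNCaP (-0.14).

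**Figure D3:**
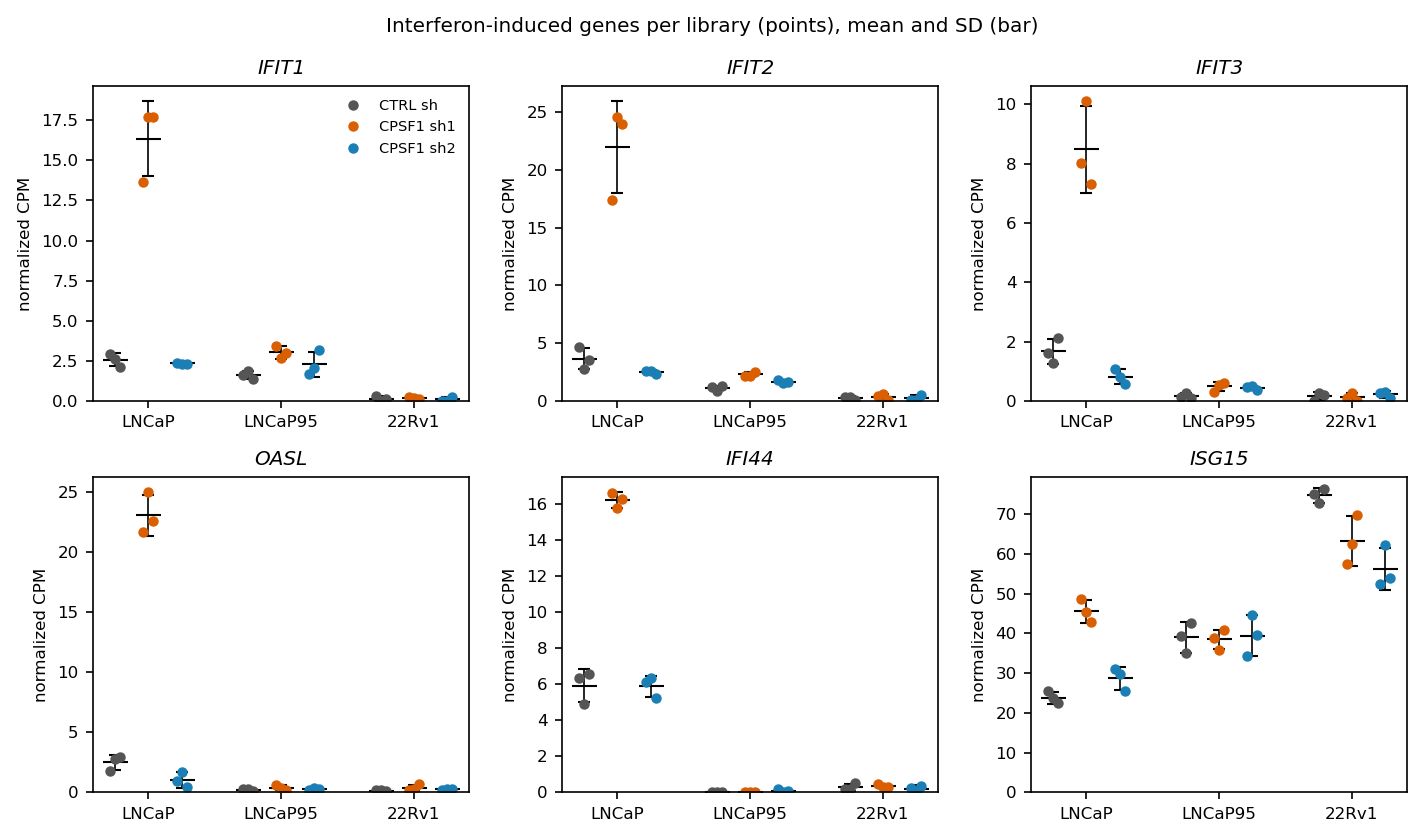
Normalized CPM of 6 interferon-induced genes in each library (points), with mean and SD (bars, n = 3), by line and hairpin. In LNCaP the 3 sh1 libraries stand above the control and sh2 libraries in each panel. IFIT3 and OASL were under the filter on low counts.

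Low members of LNCaP that did not pass the filter are given by their levels alone, with no test. OASL, an OAS relative that aids RIG-I, was 1.80, 2.78 and 2.92 CPM with CTRL sh, 21.7, 25 and 22.6 CPM with sh1 and 0.974, 1.70 and 0.415 CPM with sh2. IFIT3, which stabilizes IFIT1, was 1.61, 1.26 and 2.12 CPM, then 8.02, 10.1 and 7.30 CPM and 1.06, 0.811 and 0.581 CPM in the same order. RSAD2 (viperin), which makes a chain-terminating nucleotide, was between 0.284 and 0.443 CPM in controls, between 4.79 and 5.68 CPM with sh1 and between 1.55 and 2.24 CPM with sh2, without overlap. OAS1 was 1.99, 1.86 and 2.30 CPM in controls, 4.79, 6.50 and 4.19 CPM with sh1 and 2.83, 2.06 and 2.49 CPM with sh2. TRIM22 was 1.23, 1.94 and 1.15 CPM, then 3.47, 3.70 and 3.51 CPM and 2.66, 2.14 and 3.40 CPM, and IFITM1 was 3.22, 3.37 and 3.72 CPM, then 1.56, 2.89 and 1.07 CPM and 1.24, 1.40 and 2.08 CPM. IFI44L averaged 0.449 CPM with CTRL sh, 1.62 CPM with sh1 and 1.40 CPM with sh2, and IFI27 averaged 0.7725, 1.53 and 1.37 CPM. BST2, IRF9, MX2, OAS2, SAMD9L and XAF1 were at most 1.263 CPM in any LNCaP library. OASL, IFIT3, RSAD2 and OAS1 were thus highest in the sh1 libraries. TRIM22, IFI44L and IFI27 were lowest and IFITM1 was highest in the controls.

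Interferon transcripts were at or near 0. None of 9 interferon ligands passed the filter in any line, and 4 of them had 0 counts in all 27 libraries. In LNCaP with sh1, IFNL1 had 2, 2 and 3 counts and IFNB1 had 1, 1 and 1, whereas both had 0 counts in the other 24 libraries of the 3 lines. These counts are at the floor, and no fold change is given. CXCL10, an interferon-induced chemokine also under the filter, had 0, 2 and 5 counts with CTRL sh, 35, 46 and 37 counts with sh1 and 6, 5 and 8 counts with sh2 in LNCaP, and at most 1 count in any library of the other lines. The 8 leukocyte markers summed to 3.54 to 3.88 CPM with CTRL sh, 11.7 to 15.7 CPM with sh1 and 15.4 to 19.9 CPM with sh2 in LNCaP, and CD68, a lysosomal protein, was the only one of them above the filter. CD68 had 34, 43 and 34 counts with CTRL sh, 107, 129 and 100 counts with sh1 and 201, 234 and 167 counts with sh2, and it rose by 1.79 ± 0.16 with sh1 and 2.31 ± 0.15 with sh2. CD14, a monocyte receptor, had 1, 1 and 1 counts with CTRL sh, 8, 10 and 10 counts with sh1 and 16, 14 and 12 counts with sh2. ITGAM, an integrin of myeloid cells, had 3, 2 and 5 counts, then 13, 7 and 7 counts and 2, 7 and 4 counts in the same order. PTPRC had 1, 0 and 3 counts in the sh1 libraries and CD3E had 0 in each. The part of these markers in the results for LNCaP was not tested.

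UBE2L6, IFIT5 and IFI35 fell and HERC5 rose with each hairpin in LNCaP. UBE2L6, the conjugating enzyme of ISG15, was 5.97, 7.76 and 8.32 CPM with CTRL sh, 2.51, 2.35 and 2.04 CPM with sh1 and 2.66, 2.21 and 2.08 CPM with sh2. It fell by 1.67 ± 0.18 with sh1 and 1.66 ± 0.17 with sh2 on the log2 scale. HERC5, the ligase of the same pathway, rose from 6.72, 7.09 and 7.35 CPM to 11.5, 14.3 and 12.5 CPM with sh1 (0.87 ± 0.13) and 11.3, 8.70 and 10.2 CPM with sh2 (0.52 ± 0.13). The enzymes that attach ISG15 thus moved in opposite directions while ISG15 rose. IFIT5 lies beside IFIT1 on chromosome 10 (91174343 to 91180758 on GRCh37, with IFIT2, IFIT3 and IFIT1 from 91061712 to 91163745), and it fell with both hairpins, from 12.2, 9.11 and 10.3 CPM to 5.86, 5.96 and 5.06 CPM with sh1 (-0.89 ± 0.14) and 5.40, 5.90 and 5.15 CPM with sh2 (-0.92 ± 0.13). IFI35 fell by 0.84 ± 0.17 and 1.06 ± 0.17. Smaller falls with both hairpins, from -0.18 to -0.26, were found for STAT2, EIF2AK2 and OAS3, and IFNAR1 rose by 0.33 and 0.32. For sh1, STAT2 did not pass without CTRL sh replicate 3 (0.0799) and EIF2AK2 without sh1 replicate 3 (0.0511).

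Some falls in LNCaP were called with sh2 and not with sh1. IRF1, a transcription factor of interferon-gamma signalling and of the class I promoters, was 4.55, 5.99 and 6.28 CPM with CTRL sh, 4.91, 5.32 and 6.43 CPM with sh1 and 3.01, 2.8 and 2.16 CPM with sh2 (-1.07 ± 0.18, adjusted p = 3.33e-05). LGALS3BP fell from 45.8, 45.3 and 49.9 CPM to 31.0, 32.9 and 28.8 CPM (-0.59 ± 0.07). Both differed between the hairpins in the direct test. PARP14 (-1.0 ± 0.22) and MX1 (-0.71 ± 0.17), a GTPase that traps viral nucleocapsids, fell with sh2 as well, and neither differed past the threshold between the hairpins.

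With both hairpins pooled, 9 members rose and 10 fell in LNCaP (31.1% and 31% of all genes), with a median of 0.01. The pooled values were 1.82 ± 0.73 for IFIT1, 0.70 for HERC5, 0.64 for ISG15, -1.67 for UBE2L6, -1.39 for HLA-B, -0.96 for IFI35, -0.91 for IFIT5, -0.65 for PARP14, -0.60 for HLA-C and -0.52 for MX1, and 9 further called members lay between -0.26 and 0.37. The pooled fit took the gap between hairpins as spread. IFIT1 passed with an adjusted p of 0.0402, and its adjusted p was between 0.0617 and 0.117 when any single control or sh1 library was left out and 0.0734 with a replicate block. PARP14 did not pass without CTRL sh replicate 2 (0.117) or 3 (0.0526), and MX1 did not pass without CTRL sh replicate 1 (0.0655). The smaller rises of IRF7, HERC6 and IFIH1 each lost the call without single libraries as well, with adjusted p up to 0.246, 0.113 and 0.0745. IFIT2 (adjusted p = 0.0658) and IFI44 (0.054) did not pass when the hairpins were pooled.

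In LNCaP95, OAS3, EIF2AK2, IFIH1, PARP9, DTX3L and TRIM22 rose with each hairpin. OAS3, which makes the second messenger that activates RNase L, was 33.2, 32.9 and 30.1 CPM with CTRL sh, 63.5, 61.7 and 66.1 CPM with sh1 and 76.0, 72.8 and 77.6 CPM with sh2. The 3 groups did not overlap, and the log2 fold changes were 0.98 ± 0.06 for sh1 (adjusted p = 1.08e-11) and 1.23 ± 0.06 for sh2 (adjusted p = 1.44e-13). PARP9 and DTX3L, an ADP-ribosyltransferase and its partner ubiquitin ligase, lie on opposite strands of chromosome 3 with overlapping ends (122246771 to 122283424 and 122283085 to 122294050 on GRCh37). PARP9 rose from 34.7, 36.9 and 40.5 CPM to 62.8, 62.1 and 65.7 CPM with sh1 (0.77 ± 0.06) and 67.4, 64.7 and 68.7 CPM with sh2 (0.84 ± 0.06), and DTX3L rose by 0.65 ± 0.07 and 0.77 ± 0.07. TRIM22, an antiviral ubiquitin ligase, was 2.59, 3.48 and 4.57 CPM with CTRL sh, 8, 7.74 and 7.24 CPM with sh1 and 12.3, 11.9 and 11.4 CPM with sh2, so that it rose by 1.14 ± 0.16 and 1.77 ± 0.15. EIF2AK2 rose by 0.54 ± 0.08 and 0.62 ± 0.08, and IFIH1 by 0.50 ± 0.16 and 0.66 ± 0.16. For sh1, IFIH1 did not pass without CTRL sh replicate 1 (adjusted p = 0.0685) or in DESeq2 (0.0515). Of the other RNA sensors tested, DDX58 was called with neither hairpin (0.26 ± 0.14 and 0.19 ± 0.15), and OAS1 was not called with sh1 (-0.10 ± 0.16) and rose with sh2 (0.57 ± 0.16).

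The receptor and its signalling parts moved both ways in LNCaP95. IFNAR2 was 18.3, 20.9 and 21.8 CPM in controls and rose by 0.53 ± 0.08 and 0.57 ± 0.08, to between 28.0 and 31.8 CPM in the 6 knockdown libraries. IFNAR1 rose by 0.24 and 0.28. STAT2 was 96.3, 92.2 and 86.8 CPM with CTRL sh, 68.7, 67.7 and 62.7 CPM with sh1 and 58.1, 53.8 and 55.7 CPM with sh2, which were falls of -0.47 ± 0.05 and -0.72 ± 0.06. IRF1 fell from 8.43, 6.33 and 7.67 CPM to 2.87, 2.79 and 2.54 CPM with sh1 (-1.46 ± 0.15) and 3.69, 2.95 and 3.26 CPM with sh2 (-1.19 ± 0.15). JAK1 fell by 0.29 and 0.51, of which the first did not pass without CTRL sh replicate 2 (0.0712) or 3 (0.104), without sh1 replicate 2 (0.0507) or 3 (0.123), on library size alone (0.154) or in DESeq2 (0.112). TYK2, the other kinase, was 89.0, 73.5 and 86.46 CPM with CTRL sh, 92.2, 88.6 and 86.45 CPM with sh1 and 94.5, 93.9 and 98.4 CPM with sh2. It was called higher with sh2 alone. Thus the receptor chains rose and STAT2 and IRF1 fell with both hairpins, whereas the kinases JAK1 and TYK2 moved in opposite directions with sh2.

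IFIT1, IFIT2 and OASL did not pass the filter in LNCaP95. IFIT1 was 1.58, 1.87 and 1.36 CPM with CTRL sh, 3.42, 2.65 and 3.00 CPM with sh1 and 1.66, 2.05 and 3.17 CPM with sh2, and OASL was at or under 0.61 CPM in every LNCaP95 library. Some other members under the filter are given by mean CPM with CTRL sh, sh1 and sh2, with no test. IFIT2 was 1.127, 2.304 and 1.676, MX1 was 1.765, 3.528 and 3.127 and SAMD9 was 0.484, 1.035 and 2.091. For each of these genes, every control library lay below every knockdown library. HERC5 was 0.449, 0.552 and 0.443 and IFITM2 was 0.3655, 0.378 and 0.180. ISG15 was between 35.0 and 42.5 CPM in the controls and between 34.2 and 44.5 CPM with the hairpins, and it was called for neither. IFIT5 rose, from 3.31, 3.92 and 3.01 CPM to 5.74, 5.03 and 4.70 CPM with sh1 (0.59 ± 0.15) and 4.70, 5.32 and 4.89 CPM with sh2 (0.54 ± 0.16).

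In all, 15 members rose and 7 fell with sh1 among 32 tested in LNCaP95 (33.1% and 33.3% of 11143 genes), and 15 rose and 8 fell with sh2 (36.5% and 36.9%). The median log2 fold change of the members was 0.21 with sh1 and 0.19 with sh2. Pooled, 14 rose and 7 fell (33.2% and 33.7%), with a median of 0.19. Scaling by library size alone moved the balance of calls: 18 members rose and 6 fell pooled, with 4685 genes higher and 2850 lower in place of 3694 and 3756, and 19 rose and 6 fell with sh1, with 4861 and 2643 genes in place of 3683 and 3712. The pooled values over 0.5 in size were 1.47 for TRIM22, 1.11 for OAS3, 0.80 for PARP9, 0.71 for DTX3L, 0.62 for TAP2, 0.58 for EIF2AK2, 0.57 for IFIH1 and IFIT5, 0.55 for TAP1 and IFNAR2, and -1.33 for IRF1, -0.87 for IFI35, -0.75 for HLA-B and -0.59 for STAT2. Between the hairpins, 4 members were higher and 5 lower with sh2 (16.5% and 17.7% of all genes), among them OAS1 (0.67 ± 0.15), TRIM22 (0.63 ± 0.12) and HLA-B (-0.51 ± 0.07). The leukocyte markers summed to 6.69 to 9.51 CPM with CTRL sh, 17.4 to 21.2 CPM with sh1 and 32.4 to 37.5 CPM with sh2, with CD68 again the only one above the filter (1.19 ± 0.12 with sh1 and 1.99 ± 0.11 with sh2). CD14 had 0, 3 and 0 counts with CTRL sh, 5, 9 and 6 counts with sh1 and 14, 10 and 10 counts with sh2 in LNCaP95. The part of these markers in the results for LNCaP95 was not tested.

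**Figure D4:**
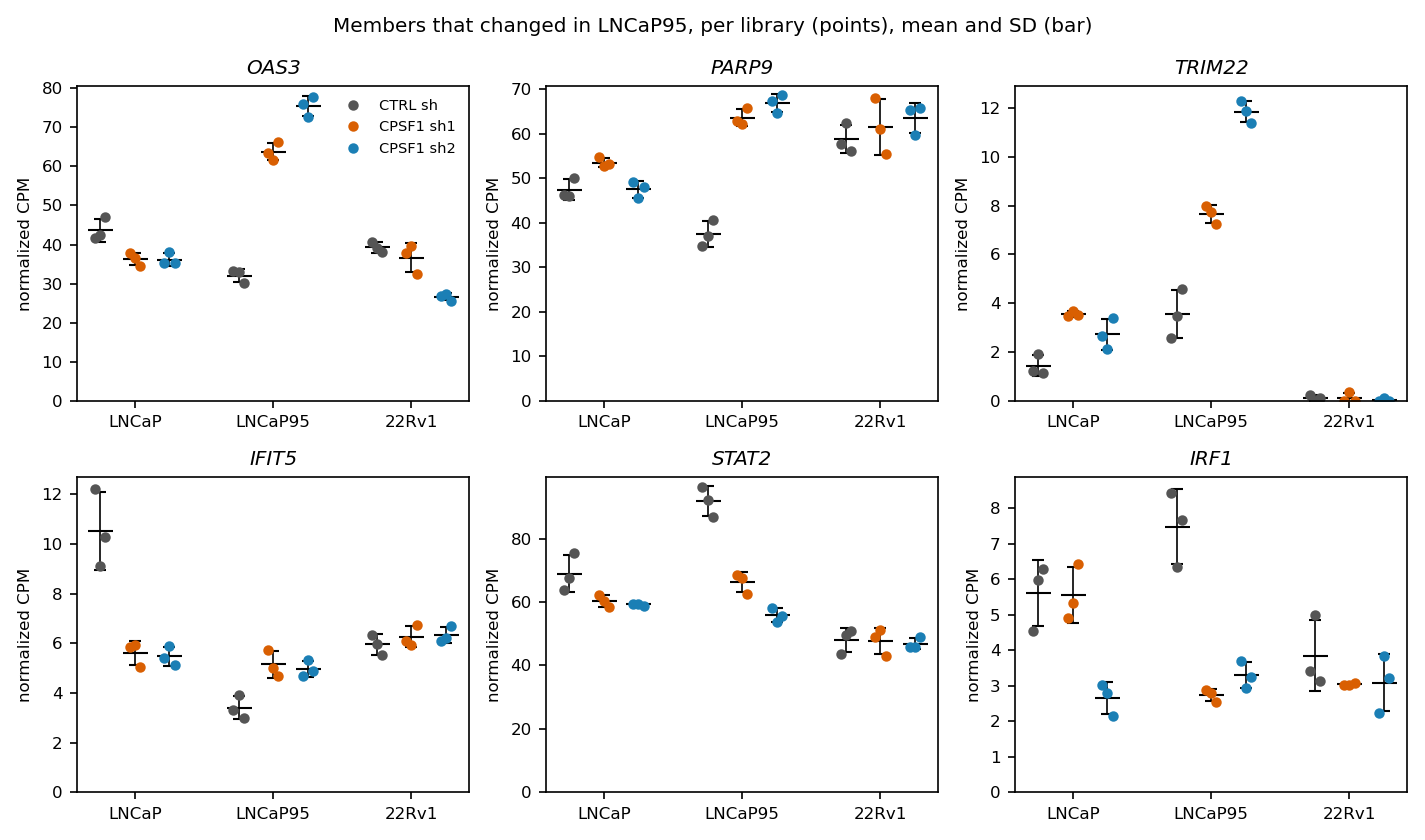
Normalized CPM of OAS3, PARP9, TRIM22, IFIT5, STAT2 and IRF1 in each library (points), with mean and SD (bars, n = 3). In LNCaP95 the 6 knockdown libraries lie above the controls for the first 4 genes and below them for STAT2 and IRF1, while IFIT5 lies below the controls in LNCaP.

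In 22Rv1, HERC5 and RSAD2 rose with each hairpin, and ISG15, IFITM2 and IFITM3 fell. HERC5, the ISG15 ligase, was 2.94, 3.08 and 2.92 CPM with CTRL sh, 6.21, 5.75 and 6.16 CPM with sh1 and 9.93, 10.0 and 10.5 CPM with sh2. The groups did not overlap, and it rose by 1.01 ± 0.14 with sh1 and 1.76 ± 0.13 with sh2 and differed between the hairpins (0.75 ± 0.11). RSAD2 was 5.06, 5.80 and 5.43 CPM in controls and rose to 9.95, 9.15 and 8.28 CPM with sh1 (0.75 ± 0.13) and 6.35, 8.07 and 7.79 CPM with sh2 (0.44 ± 0.14), although the call for sh2 was lost without CTRL sh replicate 1 (0.0798), sh2 replicate 2 (0.0707) or sh2 replicate 3 (0.0686), and in DESeq2 (0.0688). RSAD2 overlaps CMPK2 on the opposite strand, and CMPK2 was not called. ISG15, which was highest in this line, fell from 75.0, 72.7 and 76.3 CPM to 57.3, 62.4 and 69.8 CPM with sh1 (-0.24 ± 0.07) and 52.3, 62.1 and 54.0 CPM with sh2 (-0.42 ± 0.08). IFITM2 and IFITM3 fell with both hairpins, by 0.30 each with sh1 and by 0.71 and 0.38 with sh2. These genes are close in sequence and IFITM2 overlaps IFITM1 in the annotation.

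The sh1 calls of ISG15, TAP1, IFITM2 and IFITM3 in 22Rv1 were close to the threshold, with adjusted p between 0.0267 and 0.0396 in edgeR. Those of HERC5, RSAD2, HLA-C and IFI35 were kept with each library left out, although IFI35 was not called in DESeq2 (adjusted p = 0.053). With sh1, 3 members rose and 5 fell among 30 tested (8.79% and 11.1% of 11728 genes), with a median of -0.04. Leaving out CTRL sh replicate 1, 2 or 3 left 4 calls, and leaving out sh1 replicate 2 left 5. Without sh1 replicate 3, the library that stood apart, 3 members rose and 5 fell with sh1, and IFITM2 was no longer called (0.0825). Without it 3 rose and 8 fell with sh2, and 3 rose and 7 fell pooled, with 2214 and 2372 of 11744 genes higher and lower in the pooled comparison in place of 1487 and 1673. Pooled calls over all genes thus rose as well. For single hairpins and for the test between hairpins, calls over all genes with a library left out are not given. Those member counts are therefore not read as a result about the members. The calls lost without a CTRL sh library were IFITM2, IFITM3, ISG15 and TAP1. With sh2, 2 rose and 7 fell (19.1% and 20.9%), with a median of -0.09, and the falls included IFI35 (-1.06 ± 0.15), HLA-B (-0.72 ± 0.14), HLA-C (-0.71 ± 0.08) and OAS3 (-0.56 ± 0.08). Pooled, 2 rose and 6 fell (12.7% and 14.3%), with a median of -0.06, and these were HERC5 (1.44), RSAD2 (0.60), IFI35 (-0.80), HLA-C (-0.72), HLA-B and IFITM2 (-0.49 each), IFITM3 (-0.34) and ISG15 (-0.33). Between the hairpins, HERC5 was higher and OAS3 and IFITM2 were lower with sh2 (5.47% and 5.85% of all genes), and 5 members were called without sh1 replicate 1, 4 without sh1 replicate 3 and 2 without sh1 replicate 2, sh2 replicate 2 or sh2 replicate 3. The 7 tested receptors, kinases and transcription factors lay between -0.34 (IRF1) and 0.26 (IRF7) in 22Rv1 in the pooled comparison, with adjusted p from 0.186 to 0.85. The leukocyte markers summed to 2.40 to 2.85 CPM with CTRL sh, 4.47 to 4.72 CPM with sh1 and 8.59 to 9.43 CPM with sh2. CD68 had 20, 13 and 9 counts, then 20, 29 and 29 counts and 71, 67 and 72 counts in 22Rv1, and the part of these markers was not tested.

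Class I heavy chains, whose close paralogs can share reads, fell in each line. HLA-B was 93.4, 88.9 and 95.6 CPM in LNCaP with CTRL sh, 40.9, 40.4 and 35.9 CPM with sh1 and 29.7, 34.2 and 29.9 CPM with sh2. Its log2 fold change was -1.23 ± 0.06 for sh1 (adjusted p = 9.63e-13) and -1.55 ± 0.06 for sh2 (adjusted p = 2.35e-14). In LNCaP95 it was 79.8, 74.4 and 74.8 CPM, then 54.9, 54.5 and 50.0 CPM with sh1 (-0.53 ± 0.06) and 34.8, 40.6 and 36.2 CPM with sh2 (-1.04 ± 0.06). In both lines the 3 groups were fully separated, with sh2 lowest. HLA-B was low in 22Rv1, at 8.97, 8.70 and 10.3 CPM with CTRL sh, 7.30, 6.70 and 8.86 CPM with sh1 and 5.63, 6.21 and 5.13 CPM with sh2. There the pooled fall (-0.49 ± 0.15) did not pass without CTRL sh replicate 1 (0.0643), 2 (0.0524) or 3 (0.119).

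HLA-C fell with both hairpins in all lines. It went from 204, 201 and 190 CPM to 135, 146 and 135 CPM with sh1 and 123, 124 and 121 CPM with sh2 in LNCaP (-0.50 ± 0.04 and -0.69 ± 0.04). In 22Rv1 it went from 41.6, 40.9 and 40.3 CPM to 22.3, 23.7 and 28.2 CPM and 25.9, 25 and 24.6 CPM (-0.73 ± 0.08 and -0.71 ± 0.08). The falls in LNCaP95 were smaller, -0.34 and -0.41. IFI35 lies outside the class I genes and also fell in the pooled comparison of each line. It was 7.57, 6.78 and 7.48 CPM in LNCaP95 with CTRL sh, 3.6, 4.42 and 2.92 CPM with sh1 and 4.70, 4.01 and 4.34 CPM with sh2.

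In LNCaP the light chain B2M and the peptide transporter subunit TAP1 rose while HLA-B and HLA-C fell. B2M was 173, 168 and 166 CPM in LNCaP with CTRL sh and rose to 229, 228 and 238 CPM with sh1 (0.47 ± 0.04) and 203, 198 and 204 CPM with sh2 (0.27 ± 0.04). In LNCaP95, B2M averaged 269 CPM with CTRL sh, 287.6 CPM with sh1 and 326.9 CPM with sh2. It was called higher with sh2 (0.28) and was not called with sh1 (0.09). Its pooled rise there (0.19) passed in edgeR (adjusted p = 0.0204). That call was lost without CTRL sh replicate 1 (0.0825) or 3 (0.0505), with filterByExpr (0.0555) and with no filter (0.0632). TAP1 rose in LNCaP (0.40 and 0.28) and in LNCaP95, from 43.7, 40.7 and 39.1 CPM to 58.7, 57.2 and 61.0 CPM with sh1 (0.51 ± 0.06) and 61.1, 62.5 and 63.1 CPM with sh2 (0.59 ± 0.06). TAP2, the other subunit, was 64.2, 67.8 and 69.7 CPM in LNCaP with CTRL sh, 64.8, 59.0 and 56.7 CPM with sh1 and 65.3, 73.2 and 66.8 CPM with sh2. It fell with sh1 (-0.16 ± 0.06, adjusted p = 0.0274) and was not called with sh2 (0.04 ± 0.06). The call for sh1 was lost without CTRL sh replicate 2 (0.0722) or 3 (0.105), without sh1 replicate 2 (0.0721) or 3 (0.124), and in DESeq2 (0.0649). TAP2 rose in LNCaP95, from 50.9, 48.6 and 53.4 CPM to 83.1, 78.8 and 85.2 CPM with sh1 (0.69 ± 0.06) and 72.0, 70.9 and 79.1 CPM with sh2 (0.54 ± 0.06). In 22Rv1, B2M and TAP2 were not called, and TAP1 was called for sh1 alone (0.20 ± 0.06).

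**Figure D5:**
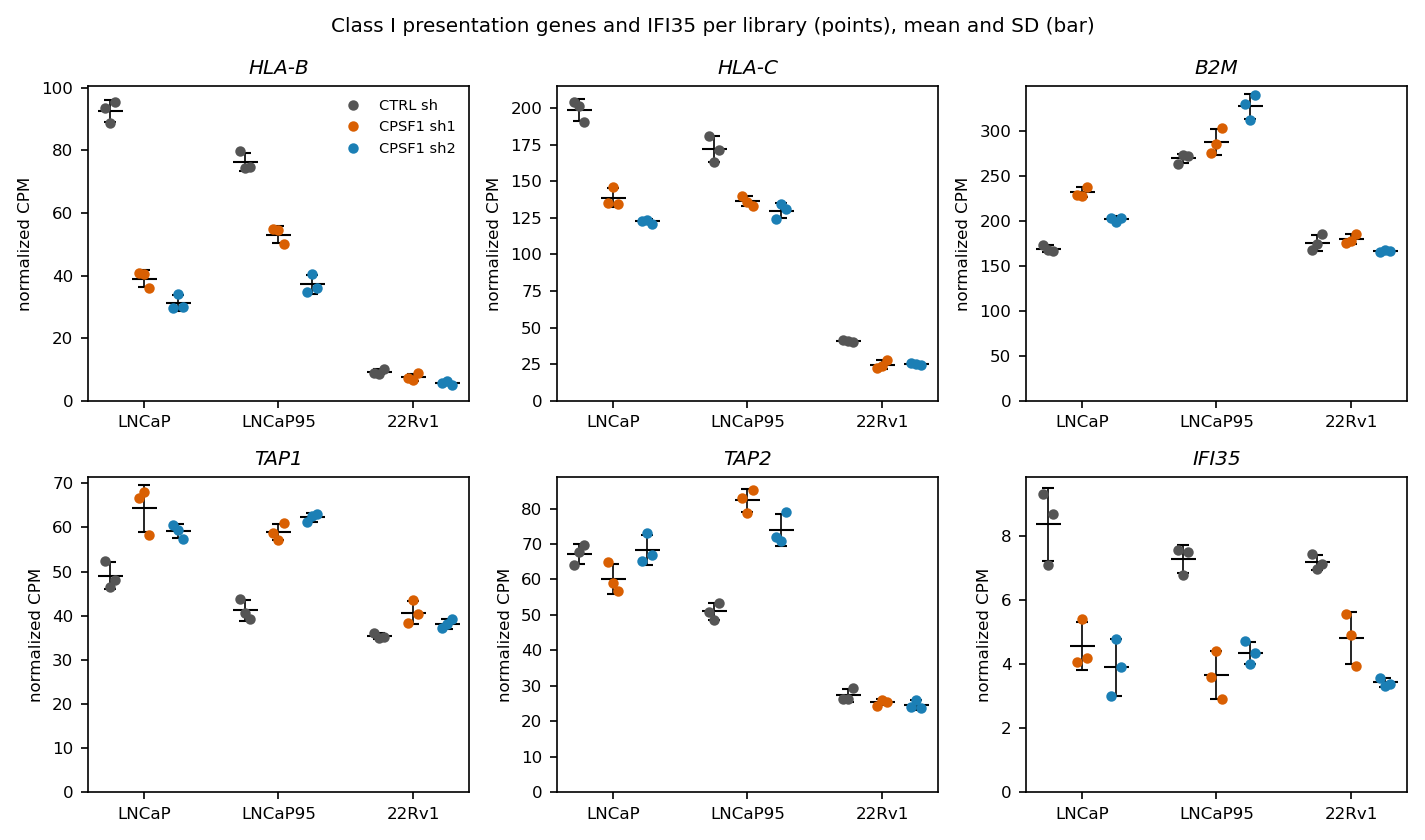
Normalized CPM of HLA-B, HLA-C, B2M, TAP1, TAP2 and IFI35 in each library (points), with mean and SD (bars, n = 3). HLA-B, HLA-C and IFI35 are lower with both hairpins than with CTRL sh in LNCaP and LNCaP95, whereas B2M in LNCaP and TAP1 and TAP2 in LNCaP95 are higher.

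The difference of the knockdown effect between lines was tested directly for the 25 members above 2 CPM in all 27 libraries. It passed the threshold for 15 members between LNCaP95 and LNCaP (59.7% of 10317 genes), for 8 between 22Rv1 and LNCaP (50.3%) and for 18 between 22Rv1 and LNCaP95 (61.6%). Against LNCaP, the effect in LNCaP95 was more positive for IFIT5 (1.49 ± 0.16), OAS3 (1.38 ± 0.08), EIF2AK2 (0.82 ± 0.08), PARP9 (0.73 ± 0.08), PARP14 (0.70 ± 0.24), TAP2 (0.69 ± 0.07), DTX3L (0.64 ± 0.09) and HLA-B (0.63 ± 0.08). It was more negative for IRF1 (-0.77 ± 0.21), ISG15 (-0.60 ± 0.12) and STAT2 (-0.38 ± 0.08). In the separate pooled fits, IFIT5 was -0.91 in LNCaP and 0.57 in LNCaP95, OAS3 was -0.26 and 1.11, and EIF2AK2 was -0.22 and 0.58, each called. Between 22Rv1 and LNCaP95 the effect was lower in 22Rv1 for 15 members, led by OAS3 (-1.44 ± 0.08), and higher for IRF1 (0.98 ± 0.22), STAT2 (0.57 ± 0.08) and JAK1 (0.48 ± 0.14). Against LNCaP, the effect in 22Rv1 was more negative for ISG15 (-0.93 ± 0.11) and IFIH1 (-0.49 ± 0.14) and more positive for IFIT5 (0.99 ± 0.15) and HLA-B (0.90 ± 0.13). The median difference of the members was 0.22, -0.06 and -0.29 for the 3 pairs of lines in that order, where the median of all genes was 0.00884, 0.00172 and -0.00252. With library size alone the effect was higher for 13 and lower for 3 members in LNCaP95 against LNCaP (4005 and 2229 genes, in place of 3220 and 2944) and higher for 3 and lower for 17 in 22Rv1 against LNCaP95 (2506 and 3956 genes, in place of 3174 and 3185). These values set each line against its own control, and LNCaP95 also differed in medium.

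Other genes of the pathway, listed by function, were read in the same fits, where the pooled comparison called 31.1% of all genes higher and 31% lower for LNCaP, 33.2% higher and 33.7% lower for LNCaP95, and 12.7% higher and 14.3% lower for 22Rv1. Among 16 upstream genes and regulators, 4 rose and 2 fell of 12 tested in LNCaP in the pooled comparison, 3 rose and 1 fell of 12 in LNCaP95, and 2 fell of 11 in 22Rv1. Of 23 further interferon-induced genes, 8 rose and 4 fell of 16 tested in LNCaP, 9 rose and 1 fell of 16 in LNCaP95, and 2 rose and 1 fell of 12 in 22Rv1. DHX58 (LGP2), a relative of RIG-I and MDA5, was 4.76 ± 0.31 CPM (SD, n = 3) with CTRL sh, 16.2 ± 1.76 CPM with sh1 and 18.7 ± 3.68 CPM with sh2 in LNCaP, and the pooled log2 fold change was 1.87 there, 2.44 in LNCaP95 and, not called, -0.00 in 22Rv1. GBP1, a guanylate-binding protein induced by interferon-gamma, rose by 1.53 in LNCaP and 1.31 in LNCaP95. PLSCR1 rose by 1.66 in LNCaP95, and ISG20, an exonuclease, fell by 0.83 in LNCaP and 0.78 in LNCaP95. DDX60 resembled DDX58 in LNCaP, with 0.37 for sh1 and -1.10 for sh2, both called.

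Of 12 further presentation genes, 2 rose and 6 fell of 10 tested in LNCaP, 1 rose and 3 fell of 10 in LNCaP95, and 2 fell of 9 in 22Rv1, in the pooled comparison and against the same shares of all genes. HLA-E, a non-classical class I chain, fell in LNCaP (-0.62) and LNCaP95 (-0.27) and was -0.14 in 22Rv1, where it passed for sh2 alone (-0.25). NLRC5, the transactivator of class I genes, was 10.6 ± 0.92 CPM (SD, n = 3) with CTRL sh, 6.07 ± 0.48 CPM with sh1 and 5.08 ± 0.51 CPM with sh2 in LNCaP, a pooled fall of -0.92. It was -0.33 in LNCaP95, which did not pass, although sh2 alone did (-0.42), and it was under the filter in 22Rv1. ERAP1, which trims peptides in the endoplasmic reticulum, and PSME1, a proteasome activator subunit, fell in all 3 lines, by 0.47, 0.32 and 0.56 and by 0.62, 0.83 and 0.31 in LNCaP, LNCaP95 and 22Rv1.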

How the data were processed

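Poly(A) RNA libraries of 27 samples were prepared with a stranded kit. The authors aligned the reads with HISAT2 2.1.0 to GRCh37, counted fragments per gene over exons with strand by featureCounts (Subread 2.0.3 per the labels) and deposited raw counts, which were not normalized. All count columns matched samples by name.

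Counts were analysed in R 4.3.3 with edgeR 4.0.16. A gene entered a fit when it exceeded 2 CPM in each library, and TMM factors were applied, and groups were compared by the quasi-likelihood F-test (legacy form) with Benjamini-Hochberg adjustment over all genes tested and a threshold of 0.05. Knockdown was compared with CTRL sh within a line (3 against 6 libraries), each hairpin in a fit with 3 groups, lines over the 9 CTRL sh libraries, and differences of the effect in a fit of all 27. Values after ± are standard errors of log2 fold changes unless SD is given. Libraries of a group differed by more than sampling noise (chi-square per degree of freedom 1.39 to 7.31 over pairs), and that spread with the depth limits the precision. Floors cover counting error only. Whether replicates came from separate infections is not given in the sources used here, so p-values measure the spread between these cultures.

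Alternatives were filterByExpr, no filter, RLE size factors, library size alone, DESeq2 1.42.0, a block for the replicate number and each library left out. The fits were tested on simulated data. Members, their roles, the other lists and the rule for named genes (called members over 0.5 in size on the log2 scale described per knockdown comparison) were chosen with earlier results of these data known. Members that enter a fit only where low genes are admitted had to be high in a group, and their tests are given only as counts.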

Additional observations from a re-analysis of the deposited data

Results flagged for a closer look

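Of the 25 members tested, the knockdown effect differed by the interaction test in edgeR for 15 between LNCaP95 and LNCaP. It differed for 8 of the 25 between 22Rv1 and LNCaP and for 18 of the 25 between 22Rv1 and LNCaP95. Members with a difference over 1 on the log2 scale were IFIT5 (1.49) and OAS3 (1.38) between LNCaP95 and LNCaP, and OAS3 (-1.44) between 22Rv1 and LNCaP95. The shares of all genes that differed were 59.7%, 50.3% and 61.6%.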

How the results depend on the processing

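Over 18 comparisons, 284 calls of a member were recomputed under the alternatives and left-out libraries, which gave 4998 values, of which 4794 kept the direction and the call, 204 kept the direction and lost the call, and 0 reversed. The left-out libraries include those of a fit that lie outside the comparison itself. A call depends on these only through the shared fit, so the number kept overstates how far the calls were tried. Counts of members called moved by over 1.5 times where low genes were admitted. Members added there could pass through a single group where they were high. No share of all genes is set beside these counts, so the counts are not read as a result about the members. With filterByExpr and with no filter they were 38 and 40 for LNCaP95 against LNCaP with CTRL sh (20 with the filter above 2 CPM), 40 and 42 for 22Rv1 against LNCaP (20), 40 and 41 for 22Rv1 against LNCaP95 (22), and 14 and 13 for the knockdown effect in 22Rv1 against LNCaP (8), since more members were tested. DESeq2 called 4 members for sh1 in 22Rv1, where edgeR called 8, and the cause was not tested. With each library left out the counts ranged from 4 to 8 for sh1 in 22Rv1 and from 2 to 5 for sh2 against sh1 in 22Rv1. A replicate block left 18 members called in LNCaP in the pooled comparison, where IFIT1 was lost, and 7 for sh1 in 22Rv1, where TAP1 was lost. Same-numbered libraries of a line deviated together (r above 0.1) in 3 of 9, 3 of 9 and 1 of 9 pairs in LNCaP, LNCaP95 and 22Rv1, and 6, 6 and 2 of 9 libraries correlated best with their own number, so that the numbers were not taken to pair the samples. Library size alone moved the median of all genes in LNCaP95 to 0.0883 in the pooled comparison.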
